A study of Mus musculus with 12 samples.

Results

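The 8 lipid synthesis genes examined here are Srebf1, Srebf2, Acly, Acaca, Fasn, Scd1, Scd2 and Elovl1, out of 21631 protein-coding genes. They were chosen by name, as genes that make lipid for surfactant. Each was followed through the accessible regions that overlap its GRCm38 gene body or the 10 kb on either side, called its locus below. Open chromatin was mapped in sorted alveolar type II (AT2) cells, 50000 cells per library, by Omni-ATAC-seq, where Tn5 transposase cuts and tags accessible DNA. The cells came from BALB/c mice of 6 to 8 weeks, 7 days after 800000 labelled tumour cells were given through the tail vein. The tumour cells were CT26, a colon carcinoma line, or 4T1, a mammary carcinoma line, and both lines are of BALB/c origin. The 4 groups were CT26 niche, CT26 distal, 4T1 niche and 4T1 distal, where niche AT2 cells came from the metastatic niche and distal AT2 cells from lung away from it. Mice of every group were injected with tumour cells, so no group here is a tumour-free control. Each group had 3 independent samples, and each sample pooled 5 lungs.

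AT2 cells make pulmonary surfactant, a film of phospholipid and protein that keeps alveoli open, and they synthesise much of its fatty acid themselves. Acly splits citrate into acetyl-CoA, Acaca carboxylates acetyl-CoA to malonyl-CoA, and Fasn builds palmitate from both. Scd1 and Scd2 add a double bond to saturated fatty acids, and Elovl1 lengthens very long chains. Srebf1 and Srebf2 encode membrane-bound transcription factors that switch these genes and the cholesterol genes on, SREBP-1 with insulin signalling and SREBP-2 when sterols are low.

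RefSeq promoter windows of GRCm38.p6 matched 6 of the 8 genes, with 9 windows of 300 bases. Scd1 and Scd2 were not matched. Shown are 5 windows that carry the start-site results below. They include the start of Fasn, whose peak ranked highest by -log10 p among the 9 windows, and the start of the sterol regulator Srebf2. The others are the downstream start of Srebf1, where peak length varied most, and both starts of Elovl1. The second Elovl1 start lost its peak in some libraries. Each window runs 5′ to 3′ on the strand of the gene, with 250 bases before the start site and 50 after it. Capitals mark exact matches on either strand to the letters listed after the sequences.
Fasn, chr11:120824498-120824797, minus strand: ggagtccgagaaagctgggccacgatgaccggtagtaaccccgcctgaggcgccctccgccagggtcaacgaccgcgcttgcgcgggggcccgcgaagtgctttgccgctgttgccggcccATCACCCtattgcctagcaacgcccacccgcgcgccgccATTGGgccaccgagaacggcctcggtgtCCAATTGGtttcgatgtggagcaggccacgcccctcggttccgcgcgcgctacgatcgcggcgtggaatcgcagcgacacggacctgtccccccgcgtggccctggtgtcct
Srebf2, chr15:82147019-82147318, plus strand: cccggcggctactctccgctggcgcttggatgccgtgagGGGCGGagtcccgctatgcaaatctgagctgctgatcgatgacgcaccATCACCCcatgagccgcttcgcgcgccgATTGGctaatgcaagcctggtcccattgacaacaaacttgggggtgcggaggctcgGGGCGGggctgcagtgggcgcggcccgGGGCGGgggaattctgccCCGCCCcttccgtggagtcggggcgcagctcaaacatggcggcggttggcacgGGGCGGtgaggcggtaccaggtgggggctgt
Srebf1 downstream start, chr11:60210422-60210721, minus strand: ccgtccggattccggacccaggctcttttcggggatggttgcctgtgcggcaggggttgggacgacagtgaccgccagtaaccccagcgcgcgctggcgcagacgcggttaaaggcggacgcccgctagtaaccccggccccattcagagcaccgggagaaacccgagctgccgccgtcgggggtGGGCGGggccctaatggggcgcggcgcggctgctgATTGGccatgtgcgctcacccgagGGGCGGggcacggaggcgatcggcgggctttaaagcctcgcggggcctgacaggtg
Elovl1 first start, chr4:118427843-118428142, plus strand: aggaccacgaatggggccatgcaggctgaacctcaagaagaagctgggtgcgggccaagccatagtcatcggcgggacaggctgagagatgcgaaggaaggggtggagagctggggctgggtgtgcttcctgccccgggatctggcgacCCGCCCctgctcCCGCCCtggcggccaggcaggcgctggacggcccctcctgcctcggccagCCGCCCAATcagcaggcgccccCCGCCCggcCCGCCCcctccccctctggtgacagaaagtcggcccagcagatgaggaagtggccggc
Elovl1 second start, chr4:118429451-118429750, plus strand: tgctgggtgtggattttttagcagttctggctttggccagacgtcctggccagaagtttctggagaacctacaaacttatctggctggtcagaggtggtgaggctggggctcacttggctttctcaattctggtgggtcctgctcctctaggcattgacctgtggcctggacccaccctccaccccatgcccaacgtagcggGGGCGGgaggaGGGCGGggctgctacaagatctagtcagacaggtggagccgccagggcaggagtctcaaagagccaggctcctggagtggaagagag

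The letters searched were CACCCCAC (the core of the classical sterol response element), CACGTG (an E-box), CCAAT (the NF-Y site), GGGCGG (the GC box read by Sp1) and ATCACCC (7 bases of a sterol response element), each with its reverse complement. ATCACCC was added after the sequences had been seen. No member window held CACCCCAC or CACGTG, which 2.87% and 7.15% of all 32851 windows of the table held. CCAAT was in 6 of the 9 member windows and in 37.4% of all windows. GGGCGG was in 6 of 9 and in 35.7%, and in the first Elovl1 window 1 match to it overlaps the CCAAT match. ATCACCC was in 2 of 9, those of Fasn and Srebf2, and in 2.69% of all windows. In both windows it lies close to NF-Y letters: in Fasn it begins at base 122, with the first of 3 NF-Y matches at base 161, and in Srebf2 it begins at base 88, with the NF-Y match at base 116, counted from the 5′ end of the window. These matches are descriptions of the letters and not measured binding sites.

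The 12 peak lists held 51005 to 55529 peaks in CT26 niche, 42067 to 50093 in CT26 distal, 63722 to 66911 in 4T1 niche and 56330 to 58237 in 4T1 distal libraries. They covered 38.3 to 44.7, 31.4 to 34.4, 49.1 to 51.9 and 42.0 to 45.7 Mb in the same order. Read depth is unknown, so a longer list cannot be told apart from deeper sequencing. In these bulk samples, a smaller share of cells with an open site and less open chromatin per cell cannot be told apart either. Loci of 10 AT2 marker genes were 8.41% to 15.3% covered by peaks over the 12 libraries, against 2.37% to 3.73% for all protein-coding loci. Marker loci of 8 macrophage and monocyte genes were 1.17% to 1.93% covered, those of 5 endothelial genes 1.61% to 3.64% and those of 5 fibroblast genes 1.24% to 3.31%. AT1 markers were covered for 4.69% to 7.97%, lymphoid markers for 3.40% to 6.46%, club and ciliated markers for 5.28% to 9.44% and markers of the tumour epithelium for 3.79% to 7.40%. Marco, Adgre1, Dcn and Krt5 had no peak in any library. The summed length at the endothelial marker loci was 6.56 to 9.18 kb in CT26 niche and 6.26 to 6.97 kb in CT26 distal libraries, and 11.1 to 14.1 kb in 4T1 niche and 7.92 to 8.60 kb in 4T1 distal libraries. At the macrophage loci it was 8.26 to 11 and 7.15 to 8.47 kb in CT26, and 10.7 to 11.8 and 8.94 to 11.1 kb in 4T1, niche before distal. At the AT2 marker loci it was 45.6 to 56.0 kb in CT26 niche, 40.2 to 46.0 kb in CT26 distal, 64.2 to 73.2 kb in 4T1 niche and 54.5 to 70.2 kb in 4T1 distal libraries, so the AT2 marker loci were also longest in 4T1 niche libraries. The part of other cells in the results below was not tested.

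The lipid synthesis loci were open in AT2 cells of all 4 groups. Peaks of the 12 libraries merged into 74 regions within the 8 loci, and 41 of these (55.4%) were held by all 12 libraries, against 42.1% of all 83727 merged regions. A further 12 (16.2%) were held by a single library, against 15.3% of all regions. Between 5.88% and 9.75% of the summed length of the 8 loci lay under peaks, more than the 2.37% to 3.73% over all protein-coding loci. The Srebf1 locus was covered for 12.5% to 21.1% of its length and the Scd1 locus for 12.1% to 23.6%. Coverage was 15.5% to 21.9% for Scd2, 10.2% to 18.0% for Elovl1 and 10.3% to 15% for Fasn, and of these 5 loci Scd2 lay above Fasn in all libraries, while the other ranges overlap. Srebf2 with 7.22% to 11% and Acly with 4.83% to 8.34% came next. Acaca, a gene of 272 kb, was covered for 1.41% to 3.90% of its locus, near the figure for all loci.

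Summed over the 8 loci, the length under peaks was 50.3, 44.8 and 42.1 kb in the CT26 niche libraries and 36.4, 37.9 and 37.7 kb in the CT26 distal libraries. In 4T1 it was 56.2, 60.3 and 57.0 kb in niche and 49.8, 56.2 and 48.7 kb in distal libraries. The means were 45.7 ± 4.17 kb (SD, n = 3) in CT26 niche, 37.3 ± 0.81 kb in CT26 distal, 57.9 ± 2.18 kb in 4T1 niche and 51.6 ± 4.03 kb in 4T1 distal. Niche libraries thus lay above distal ones in both models, clearly in CT26 and barely in 4T1, where the lowest niche library had 56.24 kb and the highest distal one 56.17 kb, and CT26 libraries lay below 4T1 libraries of the same site. The whole lists moved the same way: the 8 loci took 0.110% to 0.117% of all covered length in CT26 niche, 0.108% to 0.121% in CT26 distal, 0.108% to 0.116% in 4T1 niche and 0.111% to 0.123% in 4T1 distal libraries, and these shares overlap. For this reason lengths were scaled to the total covered length of each library before testing.

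**Figure D1:**
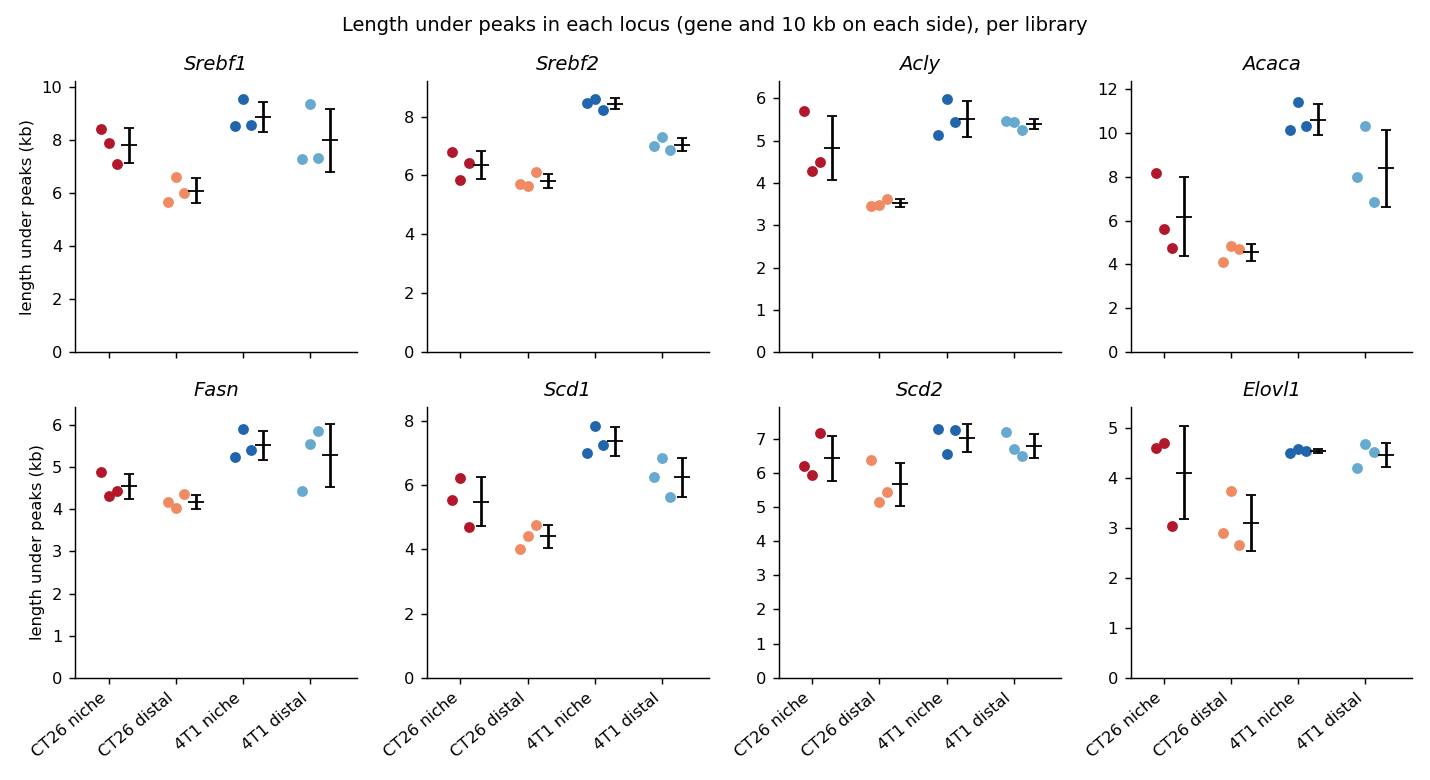
Length under peaks (kb, not scaled, axis from 0) in the locus of each of the 8 genes, for the 3 libraries of each group (points) with the mean and SD beside them (bar). CT26 distal libraries have the lowest mean at all 8 loci, and the Acaca means run to 10.6 kb in 4T1 niche libraries, with 4.55 kb in CT26 distal ones.

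Relative to the whole lists, none of the 8 loci passed the test between niche and distal AT2 cells. In limma with Benjamini-Hochberg adjustment over 16823 loci, 0 of the 8 passed at an adjusted p under 0.05 in CT26 niche against CT26 distal, where 0.672% of all loci did, and 0 of 8 in 4T1 niche against 4T1 distal, where 0.624% did. Over both models 0 of 8 passed, against 2.38% of all loci. The difference between the models in the niche effect passed at 0 of 8 members and at 0.0594% of all loci. The lowest adjusted p of a member was 0.207 in CT26, 0.376 in 4T1, 0.249 over both and 0.380 for the difference, and an unadjusted p under 0.05 was reached by 1, 0, 0 and 2 members. The median log2 change of the 8 was 0.048 in CT26 and -0.083 in 4T1, beside medians of -0.036 and -0.046 over all loci. With 3 libraries a group, the 95% intervals of niche against distal changes at single loci reached -0.49 at the lowest and 0.45 at the highest. Those of the difference between the models reached -0.46 and 0.73. Changes of these sizes at some of these loci are thus not excluded.

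Between CT26 and 4T1 libraries of the same site, again none of the 8 loci passed. In niche cells 0 of 8 passed, against 0.820% of all loci, and in distal cells 0 of 8 passed, against 5.02%. An unadjusted p under 0.05 was reached by 1 and 3 members. The nearest to the threshold was Acaca, with log2 changes of -0.45 ± 0.14 (SE) in niche and -0.42 ± 0.14 in distal cells and adjusted p of 0.0875 and 0.0855.

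These counts depend on the scaling. Without it the median log2 change of all loci shifted to 0.18 in CT26 and 0.12 in 4T1 (niche minus distal), and to -0.18 in niche and -0.23 in distal cells (CT26 minus 4T1), against 0.089 and 0.080 with it in these last comparisons. The unscaled test passed Acly alone in CT26 niche against distal, where 12% of all loci passed, and no member in 4T1, where 3.38% did. Over both models it passed Srebf1, Srebf2, Acly and Scd1, all higher in niche, against 23.7% of all loci. Between the models it passed Srebf2, Acaca and Scd1 in niche cells (14.6% of all loci) and all members except Scd2 in distal cells (29.0%), each lower in CT26. Of all loci, the scaled test called 252 higher and 149 lower in niche over both models and the unscaled test 3956 and 25. Between the models in distal cells it called 569 higher and 276 lower in CT26, and without scaling 20 and 4853. The scaled distal count of 845 loci ran from 26 to 1166 without single libraries. It was 28, 26 and 34 loci (6, 5 and 7 higher) without 4T1 distal 1, 2 or 3, and 60 (13 higher) with a replicate block, so the background of 5.02% falls to 0.155% to 0.357% there. In niche cells these counts were 31 and 107 with scaling, and 7 and 2456 without it. In CT26 niche against distal they were 88 and 25 with scaling, and 2011 and 16 without it.

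**Figure D2:**
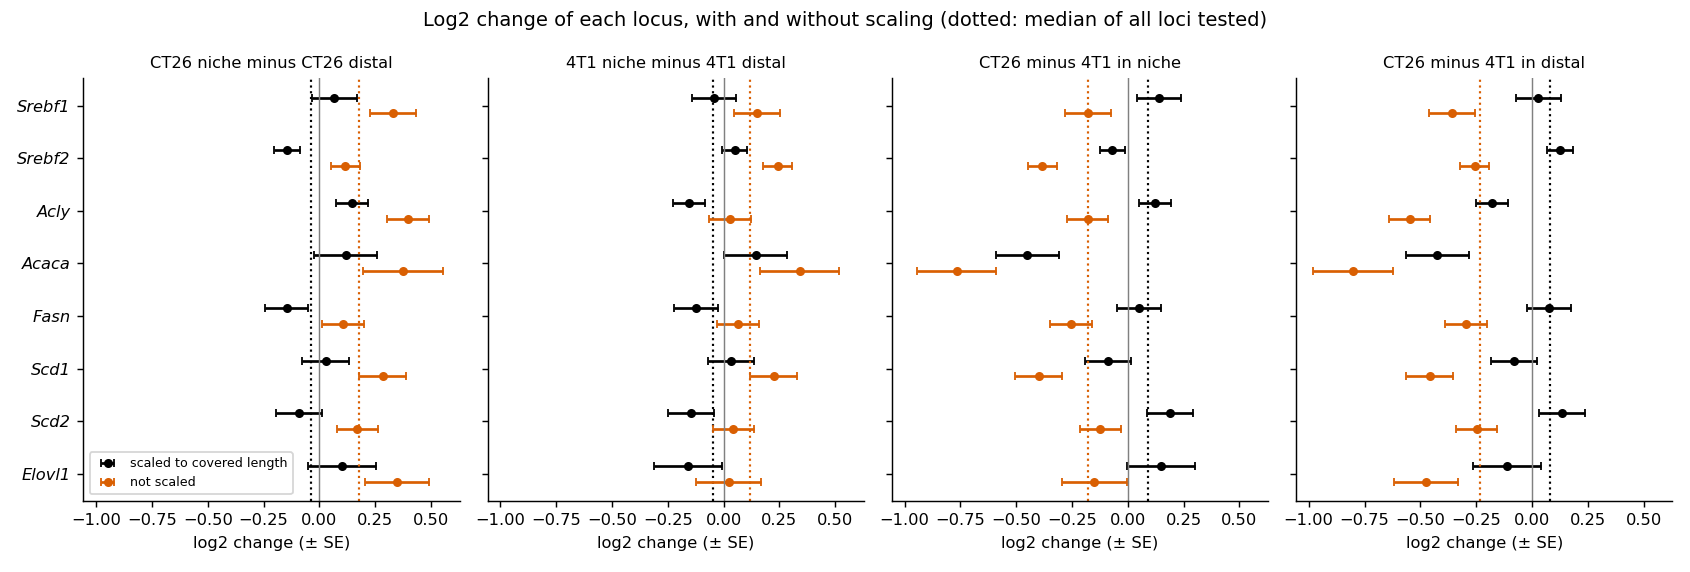
Log2 change of the length under peaks (x axis, ± SE) at each locus in 4 comparisons, scaled to the covered length of each library (black) or not scaled (orange), with the median of all tested loci as a dotted line of the same colour. Acaca lies left of the dotted line in both CT26 against 4T1 comparisons under either scaling.

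Of the regulators, Srebf1 (gene ID 20787, chromosome 11, 60199084 to 60224186) encodes SREBP-1, the main activator of fatty acid synthesis genes. Its locus held 8.39, 7.89 and 7.08 kb under peaks in CT26 niche and 5.65, 6.61 and 6.01 kb in CT26 distal libraries. In 4T1 it held 8.51, 9.53 and 8.54 kb in niche and 7.28, 9.34 and 7.31 kb in distal libraries. The CT26 groups did not overlap and the 4T1 groups did. After scaling, the log2 change was 0.068 ± 0.099 in CT26 (adjusted p = 0.744) and -0.043 ± 0.099 in 4T1 (adjusted p = 0.880, limma). Of its 10 regions 8 were held by all 12 libraries, and all 3 annotated start windows lay at least in part under peaks in every library. The downstream start (its window is printed above) varied most: its region (60208970 to 60210943) was 1604, 1362 and 321 bp long in CT26 niche, 529, 487 and 622 bp in CT26 distal, 931, 1902 and 1600 bp in 4T1 niche and 593, 1614 and 405 bp in 4T1 distal libraries. The longer peaks extended past the start into the gene. They were found in 2 of 3 CT26 niche, 0 of 3 CT26 distal, 2 of 3 4T1 niche and 1 of 3 4T1 distal libraries. The niche against distal changes of this region, 0.34 ± 0.36 in CT26 and 0.45 ± 0.36 in 4T1, did not pass (adjusted p = 0.636 and 0.619).

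Srebf2 (gene ID 20788, chromosome 15, 82147269 to 82205379) encodes SREBP-2, which acts mainly on cholesterol genes. Its locus held 6.79, 5.85 and 6.43 kb in CT26 niche and 5.71, 5.64 and 6.10 kb in CT26 distal libraries, and 8.47, 8.59 and 8.23 kb in 4T1 niche and 6.99, 7.29 and 6.86 kb in 4T1 distal libraries. The 4T1 groups did not overlap, with 8.43 ± 0.18 kb in niche and 7.05 ± 0.22 kb in distal libraries (mean ± SD, n = 3 each), while the CT26 groups did. Scaled to list length the log2 change was -0.15 ± 0.057 in CT26 (adjusted p = 0.207, unadjusted p = 0.0262) and 0.050 ± 0.057 in 4T1 (adjusted p = 0.726). The start region (82146493 to 82148884) was held by all 12 libraries and ranked at percentile 84.6 to 94.4 among the peaks of its library by the authors' -log10 p. It measured 1280 to 1504 bp in 11 libraries and 2289 bp in 4T1 niche 1. A region 13276 bp inside the gene (82160545 to 82161663) was also in all 12, at 862 to 889 bp in CT26 niche, 950 to 997 in CT26 distal, 991 to 1099 in 4T1 niche and 985 to 1104 in 4T1 distal libraries. The widest region of the locus (82164637 to 82167847), also intragenic, was 1138, 1045 and 1565 bp in CT26 niche, 981, 594 and 889 bp in CT26 distal, 1003, 1955 and 2885 bp in 4T1 niche and 1290, 1224 and 1260 bp in 4T1 distal libraries. Its niche against distal changes were 0.23 ± 0.25 in CT26 and 0.24 ± 0.25 in 4T1 and did not pass (adjusted p = 0.636 and 0.706). The locus also held 4 regions found in 1 library each, all of them in 4T1 niche libraries and at most 475 bp long.

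**Figure D3:**
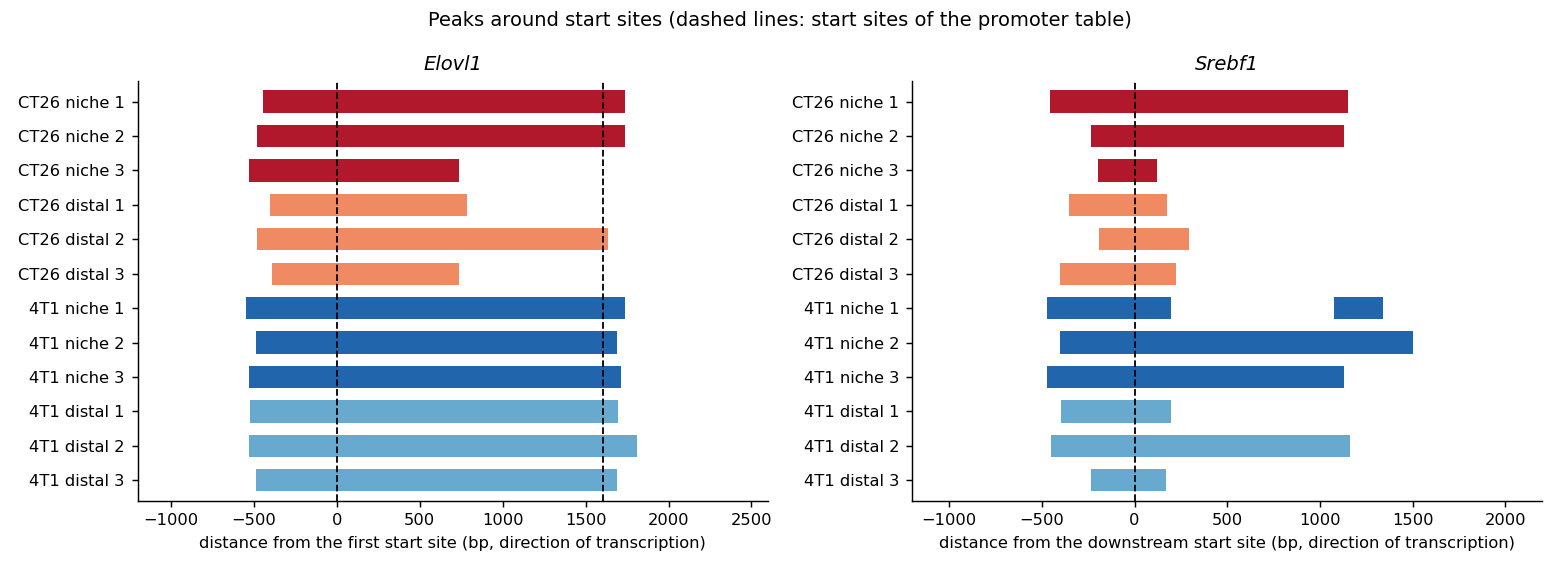
Peaks of each library (bars, coloured by group) around the first start site of Elovl1 and the downstream start site of Srebf1, with distance in bp in the direction of transcription and start sites as dashed lines. The Elovl1 peak stops short of the second start in CT26 niche 3, CT26 distal 1 and CT26 distal 3, and the Srebf1 peak reaches past 1 kb in a single stretch in 5 of the 12 libraries.

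Acly (gene ID 104112, chromosome 11, 100476352 to 100528000), the ATP citrate lyase gene, supplies the acetyl-CoA. Its locus held 5.70, 4.29 and 4.51 kb in CT26 niche and 3.46, 3.49 and 3.63 kb in CT26 distal libraries, without overlap. In 4T1 it held 5.13, 5.98 and 5.44 kb in niche and 5.46, 5.45 and 5.25 kb in distal libraries, which overlap. The scaled changes pointed opposite ways, 0.15 ± 0.072 in CT26 (adjusted p = 0.287) and -0.16 ± 0.072 in 4T1 (adjusted p = 0.376). The difference of these changes, 0.30 ± 0.10, had the lowest unadjusted p of the 8 members for that contrast (0.0118) and did not pass (adjusted p = 0.380). The start region (100527200 to 100528978) was held by all 12 libraries at 1053 to 1689 bp and percentile 86.0 to 94.4 by -log10 p. A region 8098 bp beyond that end of the gene (100536098 to 100536932) was 673, 195 and 290 bp in CT26 niche, 291, 0 and 0 bp in CT26 distal, 621 to 677 bp in 4T1 niche and 575 to 740 bp in 4T1 distal libraries. It was lower in CT26 than in 4T1 distal cells by limma (log2 change -0.94 ± 0.23, adjusted p = 0.0286). The call was lost without CT26 distal 2 or 3 or any one of the 3 4T1 distal libraries (adjusted p = 0.0632 to 0.0878).

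Acaca (gene ID 107476, chromosome 11, 84129635 to 84401651) encodes acetyl-CoA carboxylase 1, the rate-limiting step of fatty acid synthesis. Its locus held 8.18, 5.60 and 4.76 kb in CT26 niche and 4.11, 4.82 and 4.71 kb in CT26 distal libraries, and 10.1, 11.4 and 10.3 kb in 4T1 niche and 8.00, 10.3 and 6.83 kb in 4T1 distal libraries. Every CT26 distal library lay below every 4T1 library, and every CT26 niche library below every 4T1 niche library. The scaled niche against distal changes were 0.12 ± 0.14 in CT26 (adjusted p = 0.676) and 0.15 ± 0.14 in 4T1 (adjusted p = 0.666). Of its 17 regions 5 were held by all 12 libraries. The CT26 against 4T1 niche comparison passed without CT26 niche 1, the highest of its group (adjusted p = 0.0421). In that fit 6.17% of all loci passed, against 0.82% with all libraries. Without CT26 niche 2 or 3 the lowest adjusted p of any of the 8 members in that comparison was 0.197 and 0.241, and without a 4T1 niche library it was 0.174 to 0.204.

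The constant regions of Acaca lay at its lower end and at a few sites inside it. The region at the lower end of the gene (84128985 to 84130077), which also overlaps the neighbouring gene Tada2a, was 645 to 1013 bp long, and its fold enrichment over background, as the authors' caller wrote it, was 6.30 to 8.39. The sole Acaca window of the promoter table (84195188 to 84195487, plus strand) has its start site 65.8 kb inside the gene. It lay under a peak in 1 library, 4T1 niche 2, where the peak covered all 300 bases. The widest region of the locus (84178103 to 84180429) was in all 12 libraries at 1113 to 2138 bp. Shorter regions came and went. One region 241834 bp inside the gene (84371469 to 84372102) was 258, 634 and 569 bp in the 4T1 niche libraries, 427, 448 and 0 bp in the 4T1 distal ones and absent from all 6 CT26 libraries. Regions at 84134490 to 84134962 and at 84181454 to 84181738 were held by all 6 4T1 libraries, no CT26 distal library and 1 CT26 niche library each. A region at 84220258 to 84220947 was 380, 315 and 301 bp in CT26 niche, 0, 0 and 261 bp in CT26 distal, 463, 681 and 498 bp in 4T1 niche and 376, 467 and 655 bp in 4T1 distal libraries.

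Scd1 and Scd2 have no promoter window, and that of Acaca lies 65.8 kb inside its gene. Of the genes with a window, Fasn (gene ID 14104, chromosome 11, 120805958 to 120825166), the fatty acid synthase gene, had the window peak ranked highest by -log10 p. Its locus held 4.88, 4.31 and 4.44 kb in CT26 niche and 4.16, 4.02 and 4.35 kb in CT26 distal libraries, and 5.24, 5.89 and 5.41 kb in 4T1 niche and 4.44, 5.54 and 5.86 kb in 4T1 distal libraries. Niche and distal libraries overlapped in both models, and the scaled changes were -0.15 ± 0.098 in CT26 (adjusted p = 0.427) and -0.12 ± 0.098 in 4T1 (adjusted p = 0.590). The start region (120823548 to 120824957) was held by all 12 libraries, at percentile 93.5 to 98.1 of their peaks by -log10 p and a fold enrichment of 4.83 to 6.61. Its length was 1241 to 1365 bp in CT26 niche, 1087 to 1251 in CT26 distal, 1166 to 1239 in 4T1 niche and 1178 to 1223 in 4T1 distal libraries.

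The far end of Fasn differed more between libraries than its start. The region over the end of the gene opposite to the start (120805786 to 120806946) was 0, 193 and 225 bp in CT26 niche, absent from all 3 CT26 distal libraries, 934, 1022 and 341 bp in 4T1 niche and 228, 949 and 862 bp in 4T1 distal libraries. It was lower in CT26 than in 4T1 distal cells by limma (log2 change -1.14 ± 0.29 on the scale with 500 bp added, adjusted p = 0.0311). The call was lost without any one of the 3 CT26 distal libraries or without 4T1 distal 2 or 3 (adjusted p = 0.0552 to 0.105). A group with no peak has no spread, which lowers the spread the 4 groups share, so this p can be too small. Between the start and that end, 3 regions were held by 1 library each and 1 region by 3 libraries.

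**Figure D4:**
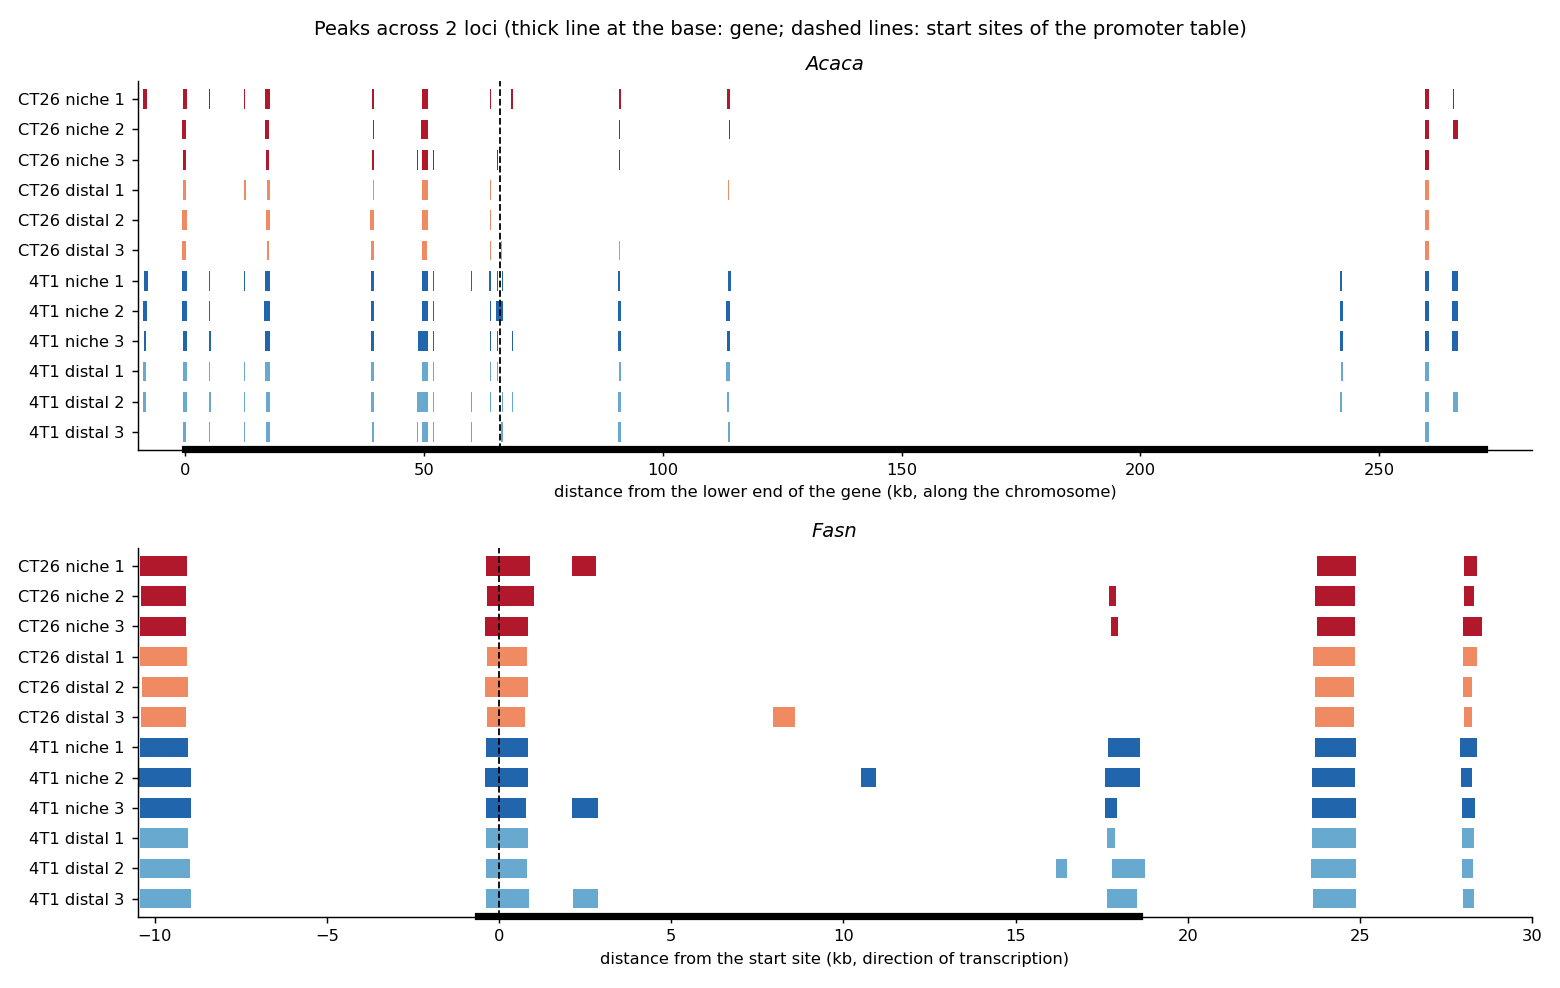
Peaks of each library (bars, coloured by group) across the loci of Acaca (distance from the lower end of the gene in kb) and Fasn (distance from the start site in kb, in the direction of transcription), with the gene as a thick line and start sites of the promoter table as dashed lines. Peaks at the lower end of Acaca and at the start of Fasn are in all 12 libraries, and the peak at the far end of Fasn is absent from the 3 CT26 distal libraries.

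Of the desaturases, Scd1 (gene ID 20249, chromosome 19, 44394450 to 44407709) held 5.54, 6.21 and 4.68 kb in CT26 niche and 4.02, 4.42 and 4.75 kb in CT26 distal libraries, and 6.98, 7.84 and 7.23 kb in 4T1 niche and 6.23, 6.85 and 5.62 kb in 4T1 distal libraries. The 4T1 groups did not overlap, and CT26 niche 3 fell inside the CT26 distal range. Scaled changes were 0.028 ± 0.10 in CT26 and 0.034 ± 0.10 in 4T1 (adjusted p = 0.912 and 0.910). The region over the upper end of the gene (44407332 to 44409373) was held by all 12 libraries at 1137 to 2009 bp. The region over the lower end (44393841 to 44396592) had the widest range of lengths among the 41 regions held by all libraries, at 1041, 1314 and 366 bp in CT26 niche, 482, 555 and 954 bp in CT26 distal, 2254, 2681 and 2628 bp in 4T1 niche and 1515, 1521 and 1435 bp in 4T1 distal libraries. All 3 4T1 niche libraries lay above all others. The 4T1 niche against distal change of this region was 0.43 ± 0.24 and did not pass (adjusted p = 0.439). It was lower in CT26 niche than in 4T1 niche cells by limma (-0.91 ± 0.24, adjusted p = 0.0426). The call was lost without CT26 niche 3, CT26 distal 2 or any one of the 6 4T1 libraries (adjusted p = 0.0512 to 0.150).

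Scd2 (gene ID 20250, chromosome 19, 44293676 to 44306864) held 6.19, 5.92 and 7.16 kb in CT26 niche and 6.37, 5.15 and 5.45 kb in CT26 distal libraries, and 7.27, 6.54 and 7.25 kb in 4T1 niche and 7.18, 6.69 and 6.49 kb in 4T1 distal libraries. Niche and distal overlapped in both models, and the scaled changes were -0.091 ± 0.10 in CT26 (adjusted p = 0.652) and -0.15 ± 0.10 in 4T1 (adjusted p = 0.541). The region over its lower end (44293480 to 44296051) was among the longest peaks of every library, at percentile 98.4 to 99.8 by length. Its highest and lowest lengths were closer in proportion than those of the other 40 regions held by all libraries, at 2323 to 2415 bp in CT26 niche, 2381 to 2546 in CT26 distal, 2338 to 2429 in 4T1 niche and 2387 to 2445 in 4T1 distal libraries. A second region 8689 bp below the gene (44282535 to 44284987) was 2296 to 2446 bp long in 11 libraries and 1517 bp in CT26 distal 3.

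Elovl1 (gene ID 54325, chromosome 4, 118426874 to 118432953), the elongase, held 4.6, 4.69 and 3.03 kb in CT26 niche and 2.89, 3.73 and 2.66 kb in CT26 distal libraries, and 4.49, 4.57 and 4.53 kb in 4T1 niche and 4.20, 4.67 and 4.51 kb in 4T1 distal libraries. The 6 4T1 libraries lay between 4.20 and 4.67 kb, and the 6 CT26 libraries spread from 2.66 to 4.69 kb. Scaled changes were 0.10 ± 0.15 in CT26 (adjusted p = 0.748) and -0.16 ± 0.15 in 4T1 (adjusted p = 0.659). A single region (118427545 to 118429905) spans both annotated starts, which lie 1608 bp apart. It was 2185, 2218 and 1263 bp long in CT26 niche, 1191, 2118 and 1128 bp in CT26 distal, 2176 to 2287 bp in 4T1 niche and 2177 to 2344 bp in 4T1 distal libraries. The first start window was fully under the peak in all 12 libraries. The second was under it in 9, and in CT26 niche 3, CT26 distal 1 and CT26 distal 3 the peak ended before it.

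**Figure D5:**
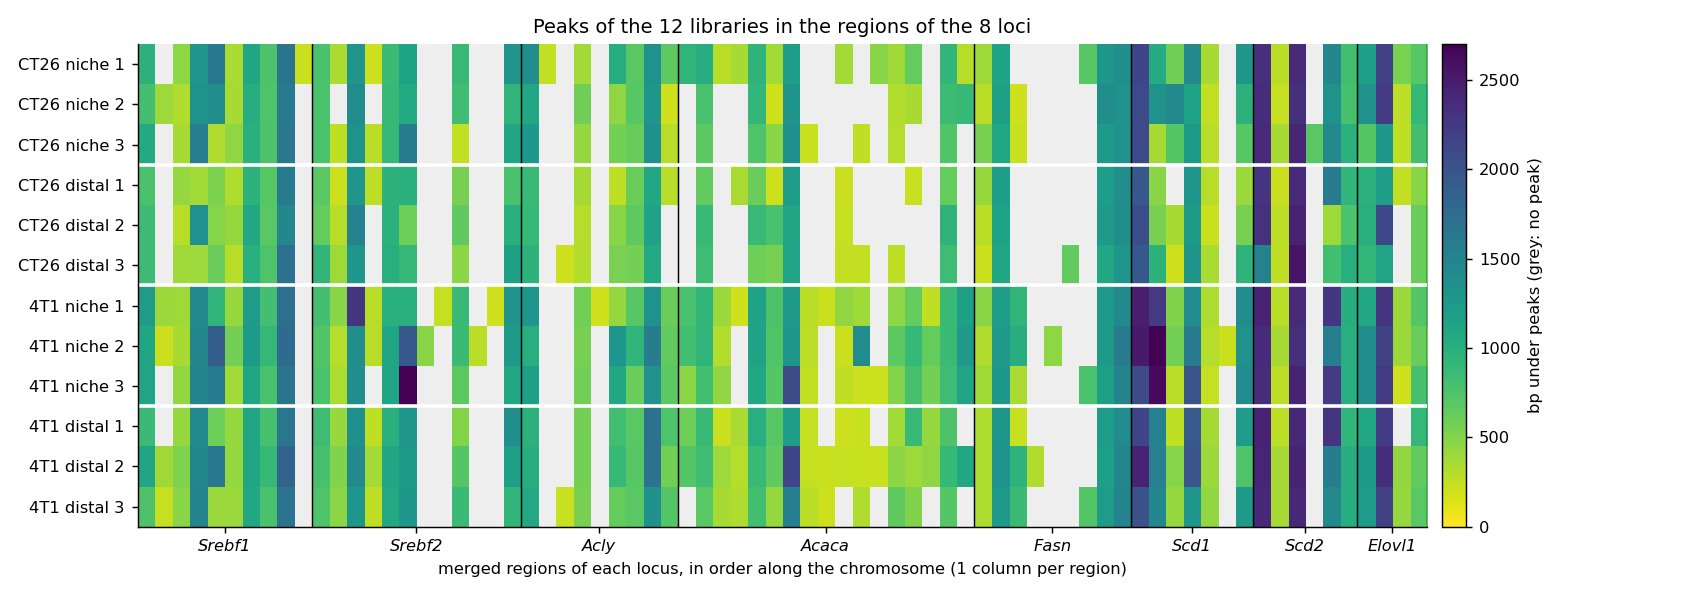
Length under peaks (bp, colour) of each of the 74 merged regions of the 8 loci (columns, in order along each chromosome) in the 12 libraries (rows, by group), with grey where a library has no peak. The 41 columns filled in all libraries sit among regions that are grey in at least 1 library, and 12 of these are filled in a single library. In Acaca, 4T1 libraries held 12 to 17 of the 17 regions and CT26 libraries 6 to 13.

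Over single regions, the members again gave no niche against distal call within a model. Of the 61 member regions held by at least 3 libraries, 0 passed in limma in CT26, against 2.47% of all 64948 regions tested, and 0 in 4T1, against 2.69%. The 4T1 background depends on each 4T1 niche library, at 21, 0 and 2 regions called without 4T1 niche 1, 2 or 3, against 1750 with all. Over both models it was 343 to 365 without a 4T1 niche library, against 6515 with all. Over both models 4 passed (6.56%), against 10% of all regions, and all 4 were lower in niche. They were the Scd2 lower-end region (-0.23 ± 0.053, adjusted p = 0.0274), the Srebf2 region at 82160545 (-0.21 ± 0.048, adjusted p = 0.0266), a region 4980 bp below Fasn (120799668 to 120800978; -0.20 ± 0.042, adjusted p = 0.0224) and a region in Tom1l2 beyond the upper end of Srebf1 (60228461 to 60230333; -0.17 ± 0.041, adjusted p = 0.0282). All are held by all 12 libraries, and scaling to a longer niche list lowers a region whose length does not change. Without scaling their changes were -0.026, -0.043, -0.026 and 0.014, with adjusted p of 0.643, 0.476, 0.624 and 0.862. The Srebf2 region was shorter before scaling in every CT26 niche than in every CT26 distal library, while its 4T1 niche and distal lengths overlapped.

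Between the tumour models, 4 member regions passed in niche cells (6.56%, against 8.44% of all regions) and 9 in distal cells (14.8%, against 11.3%). Of all regions, 102 to 156 passed in niche cells without a 4T1 niche library, against 5480 with all, and 1102 to 8349 in distal cells without single libraries, against 7323 with all. The niche calls were the Acly-side region in Klhl11 (100471734 to 100473131; 0.30 ± 0.073, adjusted p = 0.0347) and the Fasn start (0.30 ± 0.075, adjusted p = 0.0381), higher in CT26, and the Scd1 lower-end region and the Acaca region at 84371469 (-0.84 ± 0.22, adjusted p = 0.0465), lower in CT26. In distal cells the Fasn start (0.27 ± 0.075, adjusted p = 0.0437), the region in Ccdc57 8329 bp beyond that end of Fasn (120833495 to 120835094; 0.23 ± 0.064, adjusted p = 0.0477), the Scd2 lower end (0.37 ± 0.075, adjusted p = 0.0181) and the Tom1l2 region (0.23 ± 0.057, adjusted p = 0.0309) were higher in CT26. Lower in CT26 distal cells were 3 Acaca regions, at 84134490, 84181454 and 84220258 (-0.57 to -0.72, adjusted p = 0.0336 to 0.0434), and the Acly and Fasn regions given above. No CT26 distal library has a peak at the Acaca regions 84371469, 84134490 and 84181454. As for the far end of Fasn, the p of these calls can be too small. None of the 6 higher calls passed without scaling, and no call held in all 12 fits that left out 1 library. The Scd2 distal call held in 10 of them, the Acaca call at 84220258 in 1, the Acaca call at 84371469 in 2, and the distal calls of the other 2 Acaca regions, the Fasn start, the Ccdc57 region and the Tom1l2 region in 3 each. The remaining calls between the models held in 4 to 7 and the 4 niche against distal calls over both models in 6 to 8. Adjusted p reached at most 0.168.

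By presence alone, no member region was held by all niche and no distal libraries of a model, in CT26 (0 of 64 regions, against 1.96% of all) or in 4T1 (0 of 70, against 2.72%). The reverse pattern was also at 0 in both, against 0.172% and 0.150% of all regions. No member region was in all CT26 niche and no 4T1 niche libraries (0.0723% of all regions) or in all CT26 distal and no 4T1 distal libraries (0.0551%). In the other direction, 1 of 71 was in all 4T1 niche and no CT26 niche libraries (1.41%, against 4.03%), the Acaca region at 84371469. In distal cells 3 of 64 were (4.69%, against 3.45%), the far end of Fasn and the Acaca regions at 84134490 and 84181454. These shares lie near or below those of all regions.

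The rest of the lipid pathway was read from 5 lists of 83 further genes, of which 82 had a tested locus. In CT26 niche against distal 0 of 82 passed, with a median log2 change of -0.029 beside -0.036 over all loci, and in 4T1 0 of 82 passed, with -0.080 beside -0.046. The shares of all loci were 0.672% and 0.624%. Over both models 2 of 82 passed, both higher in niche, a share near the 2.38% of all loci, and the difference between models passed at 0. Between the models, 1 was higher in CT26 niche cells (Cd36, a fatty acid transporter, 0.33 ± 0.058, adjusted p = 0.0281). In distal cells 2 were higher in CT26 (Nr1h3, which encodes the sterol receptor LXR alpha, 0.30 ± 0.066, adjusted p = 0.0421, and Mcat, of mitochondrial fatty acid synthesis, 0.28 ± 0.073, adjusted p = 0.0494). The fatty acid activating gene Acsl4 was lower in CT26 distal cells (-0.69 ± 0.15, adjusted p = 0.0421). The shares of all loci were 0.820% in niche and 5.02% in distal cells. Before scaling, Nr1h3 averaged 3.11 kb in CT26 distal and 3.26 kb in 4T1 distal libraries, and Mcat 4.18 and 4.48 kb, so their direction comes from the scaling. Cd36 averaged 9.77 kb in CT26 niche and 9.67 kb in 4T1 niche libraries. Acsl4 averaged 2.02 kb in CT26 distal and 4.64 kb in 4T1 distal libraries, the same direction as after scaling. These 4 genes are named after their values were seen.

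Among the 18 other fatty acid synthesis genes tested, 1 passed over both models. None of 11 SREBP regulators, 20 phospholipid genes and 13 uptake and storage genes did. Fads2, the delta-6 desaturase gene, held 4.80, 4.47 and 3.85 kb in CT26 niche and 3.33, 2.69 and 2.72 kb in CT26 distal libraries, and 5.40, 5.65 and 5.54 kb in 4T1 niche and 3.88, 4.07 and 3.97 kb in 4T1 distal libraries. Its change of 0.26 ± 0.059 (adjusted p = 0.0471) turned to -0.19 when only peaks with -log10 q of at least 5 were kept and to -0.13 with equal list lengths, and it lost the call without 10 of the 12 libraries in turn (adjusted p up to 0.0981). Much of the difference lay in a region of the neighbouring gene Fads3, 4926 bp from Fads2. That region was 1723, 1281 and 957 bp in CT26 niche and 345, 0 and 0 bp in CT26 distal libraries. In 4T1 it was 1846, 1896 and 1679 bp in niche and 896, 1045 and 653 bp in distal libraries. The region over the upper end of Fads2 itself was 1442 to 1722 bp in all 12 libraries.

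The loci most like the regulator Srebf1 over the 12 libraries, by Pearson correlation of the log2 scaled length among 15441 loci on other chromosomes, were Ttf1 (0.907), Pde2a (0.885) and Ggact (0.883). Those most like Fasn were Mss51 (0.908), Anxa7 (0.902) and Txnl4a (0.899). The libraries share their group structure and list lengths, and the highest of so many correlations are high by selection, so these are descriptions only. Mss51 and Anxa7 both lie on chromosome 14.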

How the data were processed

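The authors deposited 1 broad peak list for each of 12 ATAC-seq libraries, made with MACS2, with bedtools also named, on GRCm38, per the submitters' processing notes. For versions, settings, aligner and filters: not given in the sources used here. Each deposited list gives start and end in bp, a score (10 times the -log10 q), the fold enrichment over the background of the same library (a ratio) and, for the peak, its -log10 p and its -log10 q. The lists hold no read counts, so depth is unknown and no interval for counting error can be given.

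Peaks on the 19 autosomes and X of all libraries that shared at least 1 bp were merged into regions, and the bp that each library's peaks cover were summed per region and per locus (gene body plus 10 kb each side). Each library was scaled to the mean of the 12 covered lengths. The log2 of the scaled length plus 500 bp went into limma 3.58.1 (R 4.3.3, eBayes with trend) over all 12 libraries with 1 mean for each of 4 groups, for the loci or regions with a peak in at least 3 libraries. Benjamini-Hochberg adjustment ran over all of them, with a threshold of 0.05. The fit was tested on simulated data that were refitted without scaling. That test therefore does not bear on the scaling or on the differing list lengths. Gene extents, promoters and symbols came from RefSeq.

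Members, gene lists and motifs were chosen with earlier results of these data known. Besides the 8 members, genes of the other lists were named where they passed in a niche against distal comparison (1 such result is not reported here), Cd36, Nr1h3, Mcat and Acsl4, called between the models, were named after their values were seen, and the 3 most correlated loci were named for Srebf1 and Fasn. Regions were named where they passed, at gene starts and where they were the widest of a locus. Samples are independent per the labels, each pooling 5 lungs. Alternatives were no scaling, scaling to regions held by all 12 libraries (added after the data were seen), an added 100 or 2000 bp, no filter, -log10 q of at least 5, the same number of peaks (42067) per library, flanks of 2 or 50 kb, a replicate block and leaving out each library.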

Additional observations from a re-analysis of the deposited data

How the results depend on the processing

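Scaling, the peak threshold, equal peak numbers and single libraries each moved the counts below, and the cause was not tested. Member loci called were 0 in every comparison as reported. Without scaling they were 1 in CT26 niche against distal, 4 over both models, 3 between models in niche and 7 in distal cells. The shares of all loci were 12%, 23.7%, 14.6% and 29%. Scaling to regions held by all 12 libraries was chosen after seeing the data. It gave 2 between models in niche cells (Acaca and Srebf2) and 2 in distal cells (Acaca and Acly). It passed 6.71% and 6.42% of all loci in these comparisons. Peaks with -log10 q of at least 5 gave 3 in distal cells (Acly lower, Fasn and Scd2 higher in CT26). In that setting 32.5% of all loci passed. Leaving out libraries gave 0 to 1 between models in niche cells. The 1 was without CT26 niche 1, where 6.17% of all loci passed.

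Member regions called numbered 0 in CT26, 0 in 4T1, 4 over both models, 4 between models in niche and 9 in distal cells. Without scaling the last 3 were 1, 2 and 5, with the all-library scaling 0, 1 and 1, and with equal peak numbers 0, 1 and 0. The shares of all regions were 6.31%, 5.41% and 4.8% without scaling and 4.97%, 4.47% and 2.66% with the all-library scaling. With equal peak numbers they were 1.86%, 1.07% and 0.996%. With -log10 q of at least 5 there were 1 in CT26, 2 in 4T1, 2 over both models and 16 between models in distal cells. In that setting 3.39%, 1.95%, 5.81% and 34% of all regions passed. Equal peak numbers gave 1 in 4T1 (0.917% of all regions), and an added 2000 bp gave 1 in CT26 (2.45%). No filter gave 0 and 4 between models in niche and distal cells (3.62% and 6.14%). Leaving out libraries gave 0 to 1 in CT26, 0 to 6 over both models, 0 to 8 between models in niche and 0 to 10 in distal cells. The shares of all regions ran from 1.47% to 3.43%, 0.55% to 10.5%, 0.164% to 14% and 1.72% to 13%. Regions in all niche and no distal libraries numbered 1 in CT26 and 3 in 4T1 with -log10 q of at least 5, 2 in 4T1 with equal peak numbers, and 0 to 2 in CT26 and 0 to 1 in 4T1 without single libraries. The reverse numbered 0 to 1 in each model without single libraries.

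Small niche against distal changes of loci, none of them called, changed sign. In CT26 without scaling these were Srebf2 (0.12), Fasn (0.11) and Scd2 (0.17), and with the all-library scaling Scd2 (0.040). In 4T1 without scaling they were Srebf1 (0.15), Fasn (0.064), Acly (0.030), Scd2 (0.044) and Elovl1 (0.023), and with the all-library scaling Srebf1 (0.10) and Fasn (0.015). With -log10 q of at least 5 they were Srebf2 (0.15), Acaca (-0.15), Scd1 (-0.24) and Elovl1 (-0.042) in CT26, and Fasn (0.014) and Acly (0.011) in 4T1. With equal peak numbers they were Acaca (-0.040) and Scd2 (0.029) in CT26, and Srebf1 (0.0073), Srebf2 (-0.14), Fasn (0.025) and Elovl1 (0.00066) in 4T1. With 50 kb flanks they were Srebf1 (-0.029) and Acly (-0.000234) in CT26, and Srebf1 (0.024) and Scd1 (-0.066) in 4T1. Without single libraries, changes ran from -0.019 to 0.24 for Acaca, -0.095 to 0.095 for Scd1, -0.20 to 0.000351 for Scd2 and -0.030 to 0.27 for Elovl1 in CT26, and from -0.11 to 0.046 for Srebf1 in 4T1. Fads2 over both models changed sign at a -log10 q of at least 5 (-0.19) and with equal peak numbers (-0.13). Without scaling, the Tom1l2 region beside Srebf1 turned to 0.014 over both models and -0.092 between models in distal cells, where the Fasn start turned to -0.026 and the Ccdc57 region to -0.084.

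Same-numbered libraries correlated at 0.011, 0.018 and -0.044 in CT26 and 0.089, 0.037 and 0.029 in 4T1 after removing group means, none over 0.1, so the numbers were not taken to pair the samples. Every library correlated best with its own number in 4T1 (3 of 3) and none in CT26 (0 of 3). The replicate block left 0 member loci called in each comparison, and gave 1 region in CT26 and 1 between models in niche cells. With it 1.46% and 5.52% of all regions passed. In that block, libraries of the same number shared an effect across both models. It thus does not pair niche with distal libraries within each model, and such a pairing was not fitted.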
